A study of Mus musculus with 11 samples.

Results

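The 34 genes described here are carried by T cells and cytotoxic lymphocytes, the lymphocytes that recognise antigen through a T cell receptor or kill target cells with granule proteins. The rule names them by symbol and uses no measured value, and all 34 were matched among 24411 genes. They comprise 23 pan-T genes, 4 genes of regulatory T cells (Foxp3, Ctla4, Ikzf2 and Il2ra), 4 cytotoxic genes (Gzma, Gzmb, Prf1 and Nkg7) and 3 others (the killer lectin receptors Klrk1 and Klrd1, and Cst7).

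RNA of whole back skin was measured in 11 samples with dermatitis induced by MC903, a vitamin D analog applied to the skin 6 times. The labels give the strain as Tg(act-EGFP)Y01Osb in every sample. The mice received 10 Gy of irradiation and then sorted femoral marrow cells from Pdgfra-Cre;tdTomato donors, and recovered for 6 weeks. In 7 samples the transplanted cells were tdTomato-negative and in 4 they were tdTomato-positive, that is, of a lineage that has expressed Pdgfra. Skin was taken on day 14, and the labels give an age of 16 to 18 without a unit. No sample without MC903, irradiation or transplantation was among the 11. Whether each sample is a separate mouse is not stated in the labels, and the p-values therefore reflect sample-to-sample spread, which may be technical. RNA from lymphocytes of the host that survive irradiation and from those of the donor cannot be told apart in these values.

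T cells carry a receptor that signals through the CD3 chains, with Cd4 or Cd8a as co-receptor, and the kinases Lck and Zap70 pass the signal to the adaptor Lat. In the skin they include memory T cells, regulatory T cells, which restrain other T cells and depend on the factor Foxp3, and in mice a layer of gamma-delta T cells in the epidermis. Cytotoxic T cells and natural killer cells release perforin (Prf1), which opens the target membrane, and granzymes, the proteases that enter through it.

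The CD3 chains define the cell type, and 3 of them lie side by side on chromosome 9 of GRCm38.p6: Cd3g (44969572 to 44980431), Cd3d (44981769 to 44987052) and Cd3e (44998735 to 45009663). Cd3g and Cd3d point away from each other, with 1355 bases between their start sites. The 250 bases before a start site of each of this pair, and of Nkg7, are shown because CD3 chains mark the cell type and Nkg7 was the tested member whose groups did not overlap. Sequences are from RefSeq on GRCm38.p6, 5′ to 3′ on the strand of the gene, and capitals mark matches on either strand to the letters TGTGGT (RUNX factors), AGGAAG (ETS factors), CAGNTG (E proteins) and TATAAA (the TATA box), which did not overlap in these windows.
Cd3g, chr9:44980432-44980681, minus strand: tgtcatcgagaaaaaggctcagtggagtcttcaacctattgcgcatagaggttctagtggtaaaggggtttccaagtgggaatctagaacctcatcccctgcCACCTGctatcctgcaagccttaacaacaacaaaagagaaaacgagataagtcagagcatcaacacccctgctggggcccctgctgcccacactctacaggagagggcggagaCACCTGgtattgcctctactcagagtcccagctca
Cd3d, chr9:44981536-44981785, plus strand: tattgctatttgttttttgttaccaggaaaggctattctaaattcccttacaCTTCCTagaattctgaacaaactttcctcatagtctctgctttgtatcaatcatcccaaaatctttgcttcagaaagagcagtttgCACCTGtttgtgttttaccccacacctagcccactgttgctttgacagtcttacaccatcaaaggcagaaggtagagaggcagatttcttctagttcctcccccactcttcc
Nkg7, chr7:43436888-43437137, plus strand: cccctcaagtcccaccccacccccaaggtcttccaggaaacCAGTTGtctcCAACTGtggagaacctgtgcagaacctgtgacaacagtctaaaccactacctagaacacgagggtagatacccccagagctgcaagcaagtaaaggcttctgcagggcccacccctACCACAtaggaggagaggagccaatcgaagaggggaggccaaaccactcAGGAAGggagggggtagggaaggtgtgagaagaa

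The Cd3d window held 1 ETS and 1 E protein match, and Cd3g 2 E protein matches. The Nkg7 window held 1 RUNX, 1 ETS and 2 E protein matches. None of the 3 windows held TATAAA. Over the 29 windows of the 23 members with an entry in the table, RUNX letters were found in 31.0%, ETS letters in 51.7%, E protein letters in 65.5% and TATAAA in 10.3%. Over all 32851 windows of this length the shares were 14.0%, 29.5%, 44.8% and 12.4%. A match describes letters only and shows no binding.

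Expected counts per sample summed to between 7190752 and 9749842, with a difference between groups within their spread (two-sided exact permutation p = 0.536, n = 4 and 7). Levels are given as CPM, counts scaled by library size with TMM factors, and as TPM where genes are compared with each other. The skin markers Krt5, a basal keratin, and Col1a1, a collagen of the dermis, had 3056 to 4424 and 2345 to 7658 CPM. The constant regions of the T cell receptor genes were not matched and are not analysed here. Hair follicle genes, from a list of 12, took 0.0547% to 1.37% of the counts in the positive and 0.0392% to 4.22% in the negative samples (exact permutation p = 0.0667, n = 4 and 7). Means were 0.455 ± 0.621% and 2.23 ± 1.55% (SD, n = 4 and 7). All 12 were tested and had log2 fold changes (positive minus negative) below 0, while 48.6% of all genes lay above 0. The median of the 12 was -2.26.

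Transcripts of T cells were present but scarce in every sample. Cd3e, the CD3 epsilon chain, had 15 to 49 counts per sample and Cd3g 10 to 51, so that counting error alone is a large part of a single value. Where a gene had 0 counts, a level of up to 3 counts remains possible, which is 0.308 to 0.418 CPM, and this limit covers counting error only. Per gene length, the highest of the 34 were Tcf7, a transcription factor of T cells that other skin cells also express, at 11.6 ± 2.5 TPM (SD, n = 11), and Ikzf2 (Helios) at 8.38 ± 2.09 TPM. Cd3g, Cd2, Cd4, Cd3e and Gzmb followed with means of 6.37, 6.05, 5.22, 4.94 and 4.78 TPM, and their ranges over the samples overlapped. Prf1 was lowest at 0.315 ± 0.219 TPM. Cd40lg, Themis and Sh2d1a also had means below 0.5 TPM.

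Before testing, 6 of the 34 were removed for low counts: Cd8b1 (1 to 9 counts per sample), Cd96 (2 to 24), Sh2d1a (0 to 3), Cd40lg (0 to 5), Gzma (0 to 15) and Prf1 (0 to 7). The other 28 were tested. The filter asks for enough counts in as many samples as the smaller group holds, so a gene could pass through the positive group alone. This was so for 1 of the 28, Nkg7, which reached the level of 1.3 CPM in 4 positive and 0 negative samples. The level was reached in 4 or more negative samples by 21 of the 28, so the others needed positive samples to pass. Among those was Ubash3a, which reached it in 2 positive and 2 negative samples.

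None of the 28 differed between the groups at an adjusted p under 0.05 with edgeR's quasi-likelihood test (Benjamini-Hochberg), and of 14588 genes tested 0% did. Fitted log2 fold changes (positive minus negative) were above 0 in 26 of the 28 and in 48.6% of all genes tested, with a median of 0.37 for the 28 and of -0.01 for all genes. At an unadjusted p under 0.05, 7 of the 28 lay higher in the positive group, beside 7.05% of all genes, and 0 lay lower, beside 9.73%. The 7 were Cd28, Ubash3a, Cd3g, Cd247, Cd4, Cd2 and Nkg7, of which Nkg7 had passed the filter only through the positive group. DESeq2 also called 0 members, with 0.269% of its genes called higher and 0.226% lower. limma voom with sample quality weights called Cd28, Cd3g, Cd4, Nkg7 and Zap70 as higher, beside 6.73% of all genes, and no member as lower, beside 7.62%. The 7 at an unadjusted p under 0.05 became 3 (Cd28, Cd4 and Nkg7) with a hair follicle score as a covariate, beside 3.21% of all genes, and 13 with quality-weighted voom, beside 16.8%. They became the same 3 without positive replicate 2, beside 4.02%, and 4 without negative replicate 4, beside 5.28%. In bulk skin, fewer cells of a type and less RNA per cell cannot be told apart.

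**Figure D1:**
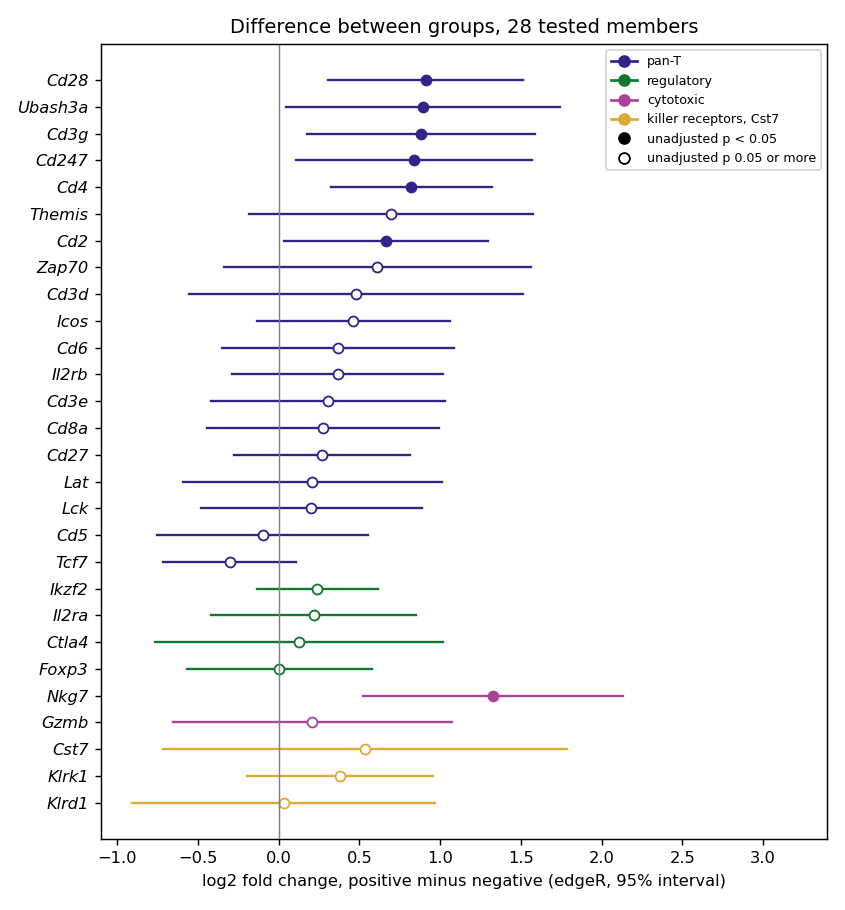
Fitted log2 fold change (x axis, positive minus negative donor marrow) with its 95% interval for the 28 tested genes, coloured by group of genes. Filled points mark the 7 genes at an unadjusted p under 0.05, and 26 of the 28 points lie above 0.

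Among the receptor chains, Cd3g and Cd247 had higher fitted values than Cd3e and Cd3d, a contrast that was not tested. Cd3e stood at 4.61, 6.26, 4.62 and 2.16 CPM in positive replicates 1 to 4, and at 1.73 (lowest), 3.34 (median) and 5.28 CPM (highest) in the 7 negative samples. Positive replicate 2 was the highest of the 11 samples, and positive replicates 1, 3 and 4 lay within the negative range. Its log2 fold change was 0.30 ± 0.33 (SE; 95% interval -0.42 to 1.03).

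Cd3g, the gamma chain, stood at 4.74, 6.52, 4.83 and 2.57 CPM in positive replicates 1 to 4 and at 1.15, 3.10 and 3.49 CPM (lowest, median, highest) in the negative samples. Only positive replicate 4 overlapped the negative samples. Its fitted difference was 0.88 ± 0.32 on the log2 scale (SE; edgeR adjusted p = 0.254). Cd3d, the delta chain, had 0.48 ± 0.47 (SE) with 4 to 28 counts per sample. Cd247, the zeta chain that carries most of the signalling motifs, had 0.84 ± 0.34 (SE), but 64.2% of its 50-base stretches also occur in transcripts of other genes on either strand, chiefly Pou2f1, and its counts were not whole in 6 of 11 samples.

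Cd4 (chromosome 6, 124864693 to 124888247), the co-receptor of helper T cells, which macrophages and dendritic cells can also carry, stood at 19.3, 15.1, 11.1 and 8.24 CPM in positive replicates 1 to 4. In turn, the negative samples had 5.32, 7.54 and 10.0 CPM (lowest, median, highest). In 3 of the 4 positive samples Cd4 was above every negative sample, and positive replicate 4 was within their range. Means were 13.4 ± 4.82 CPM (SD, n = 4) and 7.59 ± 1.69 CPM (SD, n = 7), with a log2 fold change of 0.82 ± 0.23 (SE; edgeR adjusted p = 0.248).

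Macrophage markers were also higher in positive replicates 1 and 2. Their summed level, from a list of 9 genes all detected, was 2128, 1683, 897 and 1083 CPM in positive replicates 1 to 4 and 779 to 1249 CPM in the negative samples, and 6 of the 9 were higher at an unadjusted p under 0.05, beside 7.05% of all genes. The colony-stimulating factor receptor Csf1r had 197 ± 64.1 against 139 ± 27.8 CPM (SD, n = 4 and 7). In positive replicate 3 the macrophage sum lay within the negative range while Cd4 lay above it. Of 7 dendritic and Langerhans cell genes, all tested, 3 had log2 fold changes above 0 and 4 below, beside 48.6% of all genes above 0. Their summed level was 234 to 492 CPM in the positive and 248 to 487 CPM in the negative samples. The part of macrophages and dendritic cells in the Cd4 values was not tested.

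Cd8a (chromosome 6, 71373427 to 71379171), the co-receptor of cytotoxic T cells, stood at 1.62, 1.92, 2.05 and 1.22 CPM in positive replicates 1 to 4 and at 0.690, 1.29 and 2.23 CPM in the negative samples, so all positive samples lay within the negative range. Its log2 fold change was 0.27 ± 0.33 (SE; 95% interval -0.45 to 0.99). Per gene length Cd4 exceeded Cd8a in each of the 11 samples, by 3.12 to 12.1 times. Its partner chain Cd8b1 had 36 counts over all samples together.

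**Figure D2:**
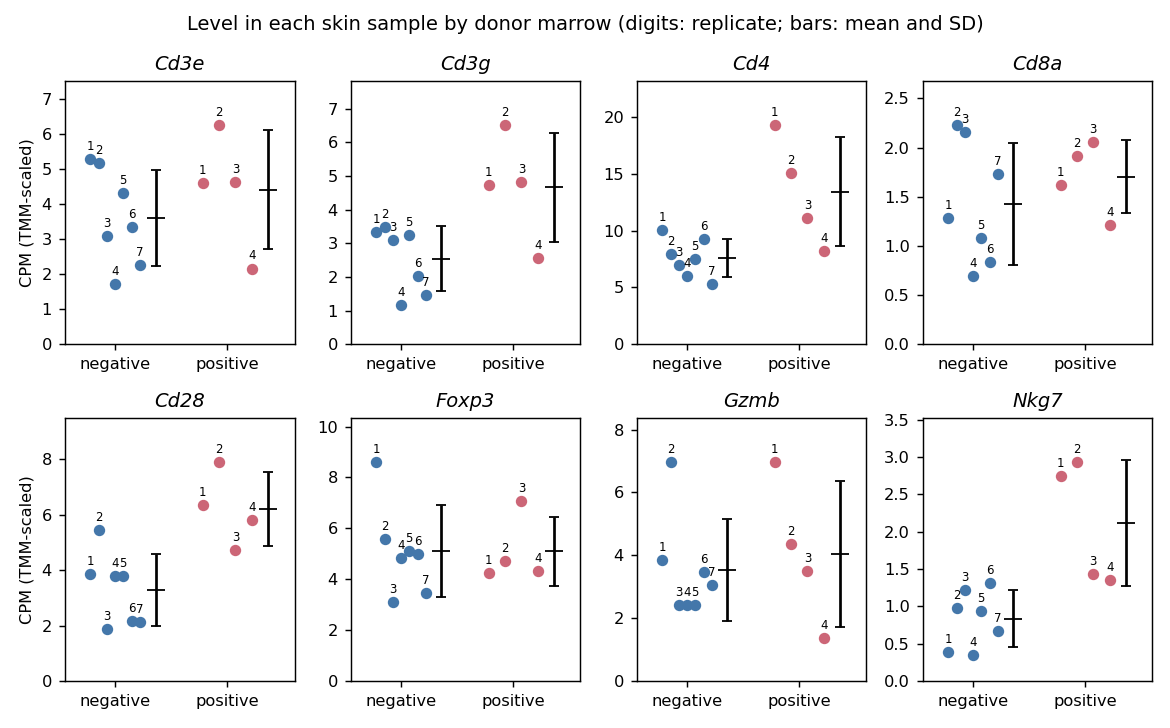
CPM of 8 genes in each sample (y axis) by donor marrow (x axis), with replicate numbers above the points and the mean and SD at the side. The 4 positive samples of Nkg7 lie above all 7 negative samples, while Foxp3 and Cd8a overlap throughout.

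Among the co-stimulatory and adhesion receptors, Cd28, which gives naive T cells their second signal, had the smallest p. It stood at 6.36, 7.92, 4.73 and 5.81 CPM in positive replicates 1 to 4 and at 1.89, 3.77 and 5.44 CPM in the negative samples. Positive replicate 3 was below the highest negative sample, negative replicate 2, and the other 3 were above it. Means were 6.20 ± 1.33 and 3.29 ± 1.29 CPM (SD, n = 4 and 7), a log2 fold change of 0.91 ± 0.28 (SE; edgeR adjusted p = 0.248).

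Cd28 lies on chromosome 1 (60746388 to 60773359) next to Ctla4 (60909025 to 60915832) and Icos (60960773 to 61000322), the inhibitory and inducible receptors of the same family. Their log2 fold changes were 0.13 ± 0.41 (SE) for Ctla4 and 0.46 ± 0.27 (SE) for Icos, with overlapping groups. Whether these neighbours differ from Cd28 was not tested. Cd2, an adhesion receptor of T and natural killer cells, had 4.05 to 5.11 CPM in the positive and 1.5 to 4.46 CPM in the negative samples, with 0.66 ± 0.29 (SE). Cd6 (0.37), Cd27 (0.27), Il2rb (0.36) and Cd5 (-0.10), a receptor that dampens signalling, had intervals that include 0.

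Of the genes that pass on the receptor signal, Lck, Lat and Zap70 had log2 fold changes of 0.20 ± 0.31, 0.21 ± 0.37 and 0.61 ± 0.44 (SE). Themis, a regulator of T cell development, had 0.70 ± 0.40 (SE) at 2 to 17 counts per sample. Ubash3a, a phosphatase family member that restrains receptor signalling, had 0.89 ± 0.39 (SE). It stood at 0.997, 2.17, 2.98 and 1.22 CPM in positive replicates 1 to 4 and at 0.399, 1.08 and 1.48 CPM in the negative samples. Here positive replicates 2 and 3 were high and the other 2 lay within the negative range.

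Tcf7 (chromosome 11, 52246527 to 52283383) had the lowest log2 fold change of the 28, at -0.30 ± 0.19 (SE). It stood at 12.0 to 14.4 CPM in the positive and 11.8 to 23.7 CPM in the negative samples. The highest value was in negative replicate 3, which also had the largest share of hair follicle counts (4.22%). Negative replicates 1 and 7, with hair shares of 0.260% and 0.0392%, had 11.8 and 12.4 CPM. Negative replicates 6 and 2, with shares of 3.33% and 2.43%, had 19.2 and 19.4 CPM. Negative replicates 5 and 4, with similar shares of 2.87% and 2.45%, had 13.6 and 14.5 CPM. Positive replicate 3, with a share of 0.0938%, had 14.4 CPM. The part of hair in the Tcf7 values was not tested.

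The 4 regulatory genes had the lowest median log2 fold change of the groups of genes, 0.17, against 0.46 for the pan-T genes, a contrast that was not tested. Foxp3 (X chromosome, 7579676 to 7595243), the factor that specifies regulatory T cells, stood at 4.24, 4.73, 7.09 and 4.32 CPM in positive replicates 1 to 4 and at 3.10, 5.01 and 8.62 CPM in the negative samples. All positive samples lay within the negative range. Means were 5.09 ± 1.35 CPM (SD, n = 4) and 5.10 ± 1.80 CPM (SD, n = 7), with a log2 fold change of 0.00 ± 0.26 (SE; 95% interval -0.57 to 0.58). That interval does not exclude a change of the size seen for Ctla4 or Il2ra. Foxp3 counts were not whole in 11 of 11 samples, and 14.7% of its 50-base stretches occur in other transcripts, among them Ccdc22.

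Il2ra, the alpha chain of the interleukin-2 receptor, which regulatory T cells carry at high levels and innate lymphoid cells also express, had 0.22 ± 0.29 (SE). Its positive replicates 1 to 4 had 9.10, 9.45, 9.66 and 5.0 CPM, and the negative samples had 4.58, 5.66 and 11.7 CPM. Ikzf2, found in other skin cells too, had 44.0, 63.1, 61.1 and 51.2 CPM in positive replicates 1 to 4 and 36, 45.6 and 69.6 CPM in the negative samples, with 0.24 ± 0.17 (SE). In both genes negative replicate 1 was the highest sample. Ikzf2 made up 68.2% to 81.7% of the summed CPM of the regulatory genes, so that sum mostly follows it. The sum was 72.0 ± 11.2 against 62.3 ± 16.7 CPM (SD, n = 4 and 7).

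Of the 4 cytotoxic genes, Gzma and Prf1 were too scarce to test. Nkg7 (chromosome 7, 43437138 to 43438246), a granule membrane protein of killer lymphocytes that some myeloid cells also express, stood at 2.74, 2.94, 1.44 and 1.35 CPM in positive replicates 1 to 4. In turn, the 7 negative samples had 0.345, 0.943 and 1.31 CPM (lowest, median, highest). The groups did not overlap, and positive replicates 1 and 2 were far above the rest. Nkg7 passed the filter only through the positive group, so a difference was built into its being tested, and its lack of overlap is a description. A gap with the positive group higher was found in 1 of 28 tested members and in 0.61% of all genes tested, and one with it lower in 0 members and 1.06% of all genes. Positive replicates 1 and 2 also had the highest macrophage sums. Negative replicates 7 and 1 followed with sums of 1249 and 1167 CPM, and had 0.665 and 0.386 CPM of Nkg7. Positive replicate 3 had a sum of 897 CPM, with Nkg7 at 1.44 CPM. The part of macrophages in the Nkg7 values was not tested. Counts were 10 to 23 in the positive and 3 to 11 in the negative samples. The log2 fold change was 1.33 ± 0.37 (SE; 95% interval 0.52 to 2.13), the highest of the 28, with an edgeR adjusted p of 0.248.

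Gzmb (chromosome 14, 56258836 to 56262334), granzyme B, stood at 6.98, 4.34, 3.49 and 1.35 CPM in positive replicates 1 to 4 and at 2.42, 3.06 and 6.97 CPM in the negative samples. Positive replicate 1 and negative replicate 2 were equally high and positive replicate 4 was the lowest of all. The log2 fold change was 0.21 ± 0.40 (SE), and -0.18 without positive replicate 1. The Gzmb transcript shared none of its 50-base stretches with transcripts of other genes, the neighbouring granzymes included. Gzma, granzyme A, had 15, 4, 1 and 5 counts in positive replicates 1 to 4 and 0 to 10 in the negative samples. Prf1 had 6, 2, 3 and 2 counts against 0 to 7.

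Among the 3 remaining genes, Klrk1 (NKG2D), an activating receptor for stress ligands, had 6.36, 4.60, 3.29 and 2.97 CPM in positive replicates 1 to 4 and 1.99, 3.22 and 4.85 CPM in the negative samples, with 0.38 ± 0.27 (SE). Cst7 (cystatin F), an inhibitor of granule proteases that myeloid cells also make, had 2.49, 1.92, 2.26 and 0.675 CPM against 0.404, 0.673 and 3.86 CPM, with 0.53 ± 0.58 (SE). Its highest value was in negative replicate 1. Klrd1 (CD94), a partner chain of inhibitory and activating killer receptors, had 0.03 ± 0.43 (SE) at 4 to 15 counts per sample.

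Samples within each group differed widely. Of the 28 tested genes, positive replicates 1, 2 and 3 lay above the median of the 11 samples in 20, 25 and 24, and positive replicate 4 in 7. In the negative group, replicate 1 lay above it in 20 and replicate 2 in 17, while replicates 4 and 7 did so in 1 each. The summed level of all 34 genes was 188, 211, 191 and 141 CPM in positive replicates 1 to 4 and 112 to 201 CPM in the negative samples. Positive replicate 4 thus fell among the negative samples for most genes, and negative replicate 1 among the positive ones.

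**Figure D3:**
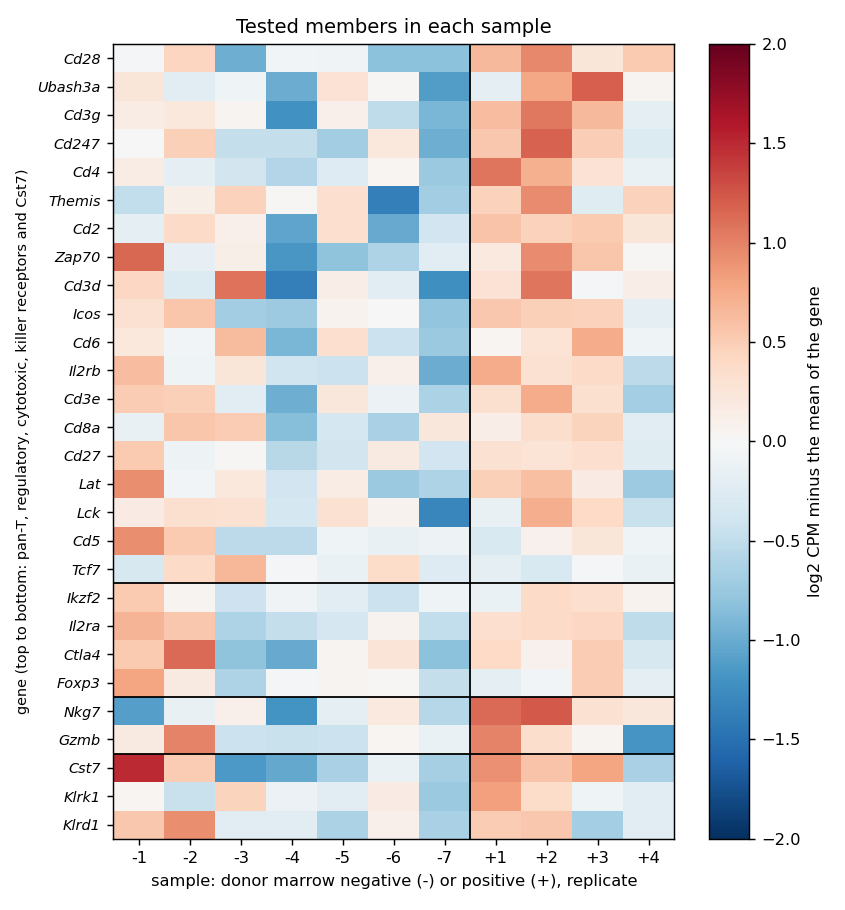
log2 CPM of each tested gene minus its mean over the 11 samples (colour), with genes in rows and samples in columns, negative donors left of the vertical line. Positive replicates 1 to 3 and negative replicates 1 and 2 are mostly above the mean, and negative replicates 4 and 7 mostly below it.

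Part of the members varied together with Cd3e. Over the 11 samples, log2 CPM of 13 of 27 other tested genes were related to Cd3e at an adjusted permutation p under 0.05 for Pearson's r (27 relations, Benjamini-Hochberg), and 11 of the 13 also for Spearman's rho. On log2(TPM + 1), 9 were related. Cd3g had r = 0.87 (permutation p = 0.0005, adjusted 0.0121) and rho = 0.87 (permutation p = 0.00086, adjusted 0.0193). Icos had r = 0.87 and rho = 0.84, with adjusted permutation p of 0.0121 and 0.0193. Without negative replicate 4 and positive replicate 4, the samples farthest from the median of Cd3e, r was 0.86 for Cd3g and 0.90 for Icos. Within the 7 negative samples alone it was 0.92 and 0.91. The genes share libraries and scaling, so these values describe the samples and not a link between genes.

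Of the regulatory genes, Il2ra (r = 0.83) and Ctla4 (r = 0.80) were related to Cd3e, both with an adjusted permutation p of 0.0240. Foxp3 (r = 0.50, permutation p = 0.115, adjusted 0.148; rho = 0.53) and Ikzf2 (r = 0.45) did not pass. Gzmb had r = 0.68 (adjusted permutation p = 0.0447), which was 0.52 without the same pair of samples. Nkg7 had r = 0.46 (adjusted permutation p = 0.175) and Tcf7 r = -0.11 (adjusted permutation p = 0.742). Without that pair, r of Cd28 went from 0.46 to 0.88 and that of Cd8a from 0.51 to 0.13. For members with few counts, a low r is not a sign that genes vary apart. Tcf7 and Ikzf2 had 1327 and 4347 counts over all 11 samples, so this limit reaches them only through the low counts of Cd3e.

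**Figure D4:**
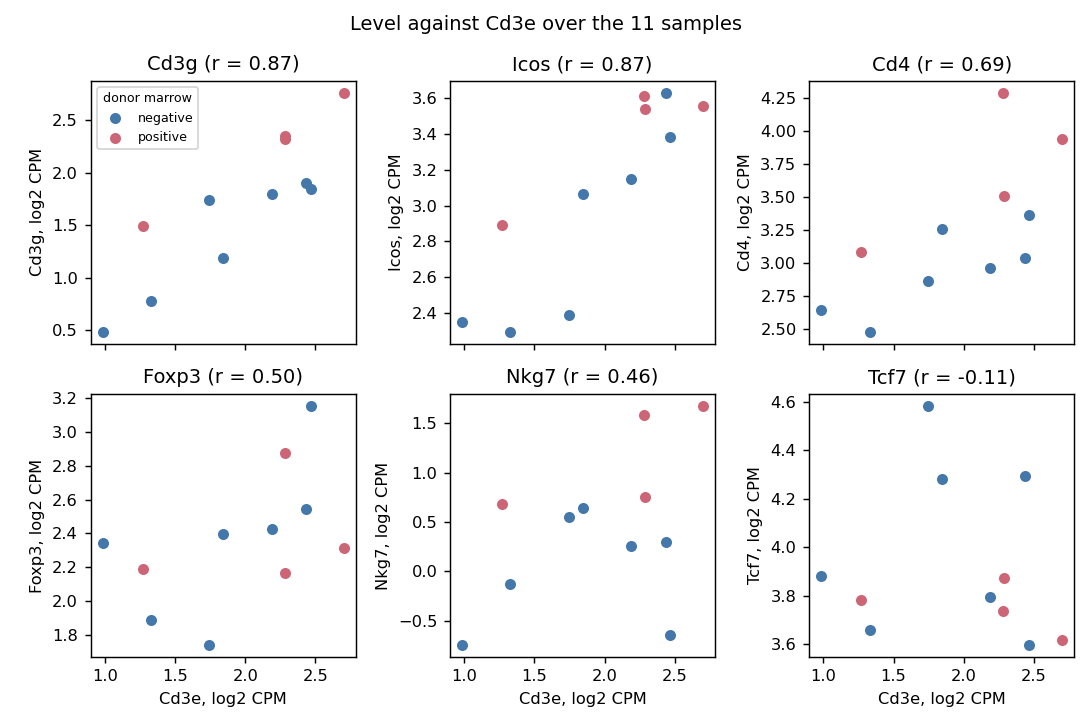
log2 CPM of 6 genes (y axis) against Cd3e (x axis) over the 11 samples, coloured by donor marrow. Cd3g and Icos lie close to a line (r = 0.87 each), while Tcf7 does not follow Cd3e (r = -0.11).

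Levels relative to Cd3e ask whether other genes differed apart from the amount of Cd3e. Macrophages and dendritic cells can also carry Cd4, and natural killer cells granzymes, so the ratios do not measure the make-up of T cells alone. The log2 ratio of Cd4 to Cd3e per gene length was 0.37 ± 0.42 in the positive and -0.11 ± 0.39 in the negative samples (SD, n = 4 and 7), a difference of 0.48 (two-sided exact permutation p = 0.0879, adjusted over 5 ratios 0.439). For Foxp3 the difference was -0.27 (exact p = 0.448) and for Gzmb -0.21 (exact p = 0.527). For Cd8a it was 0.03 (exact p = 0.912) and for Gzma 0.02 (exact p = 0.991), and both turned sign when single samples were left out. With 330 splits, no p below 0.00303 could be reached. None of the 5 ratios differed beyond the spread between samples.

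The further genes of receptor signalling, from a list of 28 that holds no member, had 25 tested, of which 8 were higher and 2 lower at an unadjusted p under 0.05, beside 7.05% and 9.73% of all genes, and edgeR called 0 after adjustment. Their median log2 fold change was 0.31, beside -0.01 for all genes. The smallest p were those of Bcl10, an adaptor that links antigen receptors to NF-kappaB (0.29 ± 0.09, SE), Ets1, a transcription factor of lymphocytes and endothelium (0.43 ± 0.13, SE), and Fyb, an adaptor of integrin activation (0.47 ± 0.15, SE). All 3 are also made outside T cells.

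Of 22 helper subset genes, cytokines and their factors, 8 were tested, with 4 above and 4 below 0, beside 48.6% of all genes above 0. Gata3, the factor of type 2 helper cells that epidermis and hair follicle also express, had -0.44 ± 0.15 (SE), and Ccr4, a skin-homing chemokine receptor, -0.85 ± 0.37 (SE). Both, 2 of the 8 tested, were lower at an unadjusted p under 0.05, beside 9.73% of all genes. Their adjusted p-values by edgeR were 0.248 and 0.286. The summed level of the 22 genes was 348 to 392 CPM in the positive and 404 to 455 CPM in the negative samples, mostly from Gata3, Stat6 and Bcl6. This sum was noticed after its values were seen. Ccr4 stood opposite to Cd3g and Cd4, at 1.21 ± 0.381 against 2.20 ± 0.901 CPM (SD, n = 4 and 7). Of the cytokines on the list, Il2 and Il9 had 0 counts in every sample, Il17a had 1 count in all, Ifng 10 and Il10 91, and none of these was tested. Il4, the type 2 cytokine, had 202 counts in all and was tested. It stood at 6.36, 2.04, 1.54 and 1.22 CPM in positive replicates 1 to 4 and at 0.269, 1.73 and 5.86 CPM in the negative samples, with overlapping groups and a log2 fold change of 0.43 ± 0.62 (SE).

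Of 12 further regulatory T cell genes, all 8 tested lay above 0, beside 48.6% of all genes. Only Nrp1, a semaphorin co-receptor that endothelium also carries, was higher at an unadjusted p under 0.05 (0.49 ± 0.13, SE). Of all genes tested, 7.05% were. Of 22 further granule and natural killer genes, 6 were tested and all lay above 0, beside 48.6% of all genes. Serpinb9, the inhibitor of granzyme B, had 9.64 ± 3.07 against 5.92 ± 1.32 CPM (SD, n = 4 and 7), and the chemokine Ccl5 1.5 ± 0.629 against 0.828 ± 0.382 CPM. The natural killer genes Ncr1, Eomes and Klrb1c had 44, 35 and 39 counts over all 11 samples, and Gzmd, Gzmg, Gzmk and Gzmn had 0.

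Skin-resident T cell genes were all tested, and 10 of 12 lay above 0 with a median of 0.33, beside 48.6% of all genes. The smallest p was that of Ccr4, and Il7r, the interleukin-7 receptor, followed with 0.59 ± 0.27 (SE). Among 8 checkpoint genes, 6 were tested and 5 lay above 0, beside 48.6% of all genes. Entpd1 (CD39), an enzyme that degrades ATP on regulatory T cells, macrophages and endothelium, had 136, 81.5, 54.6 and 48.6 CPM in positive replicates 1 to 4 and 28.6 to 53.8 CPM in the negative samples.

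Other cell types that share some of these genes had the following levels. Among the B cell markers, Ms4a1, Cd79a, Cd79b and Cr2 had 5, 16, 53 and 84 counts over all 11 samples, and Cr2 was tested, with a log2 fold change of 0.45 ± 0.31 (SE). The summed level of 8 mast cell genes was 171 to 340 CPM in the positive and 113 to 533 CPM in the negative samples, highest in negative replicate 1, where Zap70, Lat and Cst7 were also highest. The sum of 6 neutrophil genes was highest in positive replicate 1 (550.1 CPM) and negative replicate 2 (424 CPM), the samples with the highest Gzmb. The other samples did not keep this order. Positive replicate 4 had a sum of 207 CPM and the lowest Gzmb (1.35 CPM). Positive replicate 3 had the lowest sum (53.0 CPM), with Gzmb at 3.49 CPM. The 7 innate lymphoid cell genes, of which 4 were tested, summed to 527 to 701 against 289 to 653 CPM. That sum mostly follows Rora (means of 362 in the positive and 292 CPM in the negative samples) and Arg1 (207 and 149 CPM). Il5, Il13 and Klrg1 had 7, 29 and 55 counts over all 11 samples. The part of these other cell types in the member values was not tested.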

How the data were processed

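Total RNA of back skin was sequenced after ribosomal RNA removal, per the labels' protocols. Per the submitters' processing notes, the tools were RSEM, Trim Galore and bcl2fastq, with GRCm38. The sources used here do not give versions, the aligner or the strand setting. The authors deposited expected counts, that is, RSEM estimates per gene without normalization. The TPM deposited by the authors are relative to effective length, and the deposited effective lengths, in bases (other values), served for the ratios. Pieces of sequence that members share with other genes were counted in GENCODE vM21 transcripts.

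Expected counts were rounded and tested with edgeR 4.0.16 (R 4.3.3) over 14588 genes that passed filterByExpr (minimum count 10, minimum total 15), with TMM factors, group as the only term, and glmQLFit in its default legacy mode. Correlations used log2 CPM with a prior count of 2 and 100000 permutations, and ratios a pseudocount of 0.5. Tests were checked on simulated data. No library was a copy of another (chi-square per degree of freedom within groups at least 3.57).

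Alternatives used other factors and filters, DESeq2 1.42.0, limma 3.58.1 (voom with quality weights, and limma-trend on log2(TPM + 1)), a hair covariate, the replicate numbers as a block, and leaving out each sample. The members and lists were chosen with earlier results of these data known. Named genes were the main receptor, regulatory and granzyme genes, the 2 members with the smallest p in each group of genes, members without overlap, the highest and lowest by TPM, and up to 3 per further list by p.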

Additional observations from a re-analysis of the deposited data

Results flagged for a closer look

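Among 76 sets of gene, sum or ratio values, each within 1 group, 9 held 1 sample that stood far from the others of that group. About 4 such cases would be given by chance if the sets were independent and normally distributed. Part of the members varied together and Gzmb is part of the cytotoxic sum, so that number is no measure of chance here. Positive replicate 4 was low in Cd27 (1.62 CPM, the others 2.43 to 2.57), in Icos (7.16 CPM, the others 11.4 to 12.0) and in Il2ra (5.0 CPM, the others 9.10 to 9.66). Negative replicate 1 was high in Zap70 (3.86 CPM, the others up to 1.75), in Lat (4.38 CPM, the others up to 2.56), in Ikzf2 (69.6 CPM, the others up to 50.5) and in Cst7 (3.86 CPM, the others up to 1.81). Negative replicate 2 was high in Gzmb (6.97 CPM, the others up to 3.86) and in the summed level of the 4 cytotoxic genes (9.34 CPM, the others up to 5.39). No explanation was tested.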

How the results depend on the processing

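Depth limits single genes: Cd3e had 15 to 49 counts per sample. Of 28 tested members, 21 kept the direction of their log2 fold change in every alternative run, and 7 turned in at least 1. edgeR called 0 members under every setting of normalization, filter, hair covariate, replicate block and left-out sample. Members called were 5 with voom with quality weights and 0 with DESeq2. Over all genes, DESeq2 called 68 and quality-weighted voom 2093, and leaving out single samples gave 0 to 3 with edgeR (1 without negative replicate 4, 3 without negative replicate 7). The 7 members at an unadjusted p under 0.05 became 3 with the hair score as a covariate, beside 3.21% of all genes, and 13 with quality-weighted voom, beside 16.8%. Leaving out single samples gave 3 (without positive replicate 2, beside 4.02% of all genes) to 8, and 4 without negative replicate 4 (5.28%). Counts of 8 came without negative replicate 1, beside 10.6% of all genes, and without positive replicate 4, beside 8.49%. Cd28, Cd4 and Nkg7 were among the members at an unadjusted p under 0.05 in every alternative. In the main run Nkg7 had passed the filter only through the positive group, so a difference was built into its being tested. Why the number of members changed was not tested. The labels do not state whether samples of the same replicate number belong together. Deviations of same-numbered samples from their group means had correlations of -0.04, -0.14, -0.05 and 0.34. With so few pairs these values cannot decide whether the numbers mark a pairing. With the replicate block, 5 of the 7 remained, beside 8.33% of all genes. The block turned Lat (-0.052), Foxp3 (-0.077) and Klrd1 (-0.27). The hair covariate turned Lat (-0.033) and Foxp3 (-0.12), and quality-weighted voom turned Cd5 (0.11) and Foxp3 (-0.034). With a sample left out, log2 fold changes ranged from -0.20 to 0.13 for Cd5, -0.020 to 0.37 for Lck, -0.20 to 0.19 for Foxp3, -0.0094 to 0.42 for Ctla4, -0.18 to 0.49 for Gzmb and -0.17 to 0.29 for Klrd1. The median of the 28 lay between 0.24 and 0.56. The difference in the log2 ratio to Cd3e ranged from -0.13 to 0.19 for Cd8a and from -0.51 to 0.73 for Gzma with a sample left out, and was -0.056 for Gzma with a pseudocount of 1. Members related to Cd3e numbered 13 with other factors and 9 on log2(TPM + 1).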
